A study of Mus musculus with 6 samples.

Results

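The GIMAP genes encode GTPases of immunity-associated proteins, a family of guanine nucleotide-binding proteins that share an AIG1-type GTPase domain and lie side by side on mouse chromosome 6. The members were chosen by symbol, as the rows of the deposited gene table that begin with Gimap, and they were proposed with the levels in both groups already known. The rule was met by 8 of the 23793 rows, namely Gimap1, Gimap3, Gimap4, Gimap5, Gimap6, Gimap7, Gimap8 and Gimap9, and the authors had tested all 8. Because the same contrast stood behind the choice, the levels and changes of the 8 genes are given as a description, without a test.

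The libraries came from i660BM, a pro-B cell line of C57BL/6 mice that grows with interleukin 7 and in which doxycycline switches on PU.1, an ETS family transcription factor encoded by Spi1. The non-induced group held 3 libraries of cells given no doxycycline, and the induced group held 3 libraries of the same line after 48 h with 70 ng/ml doxycycline. Cells of both groups carry the inducible system, and no group received doxycycline without it, so the drug and the induced factor cannot be told apart. The table holds 1 value per gene and group in FPKM (fragments per kilobase of transcript and per unit of depth), so no spread between libraries can be given. All of the cells belong to 1 line. The labels do not say that the libraries were grown apart, and p-values may then reflect no more than technical spread.

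GIMAP proteins are best known from T and B lymphocytes, where several members set how long a cell survives. Loss of Gimap5 leads to a lack of lymphocytes in rats and mice, and loss of Gimap1 removes mature B and T cells. Members differ in the membrane they sit on, Gimap5 being described on lysosomes and Gimap3 on mitochondria, and some have been described to bind proteins of the BCL2 family. Pro-B cells, the stage of this line, are precursors that have not yet finished a heavy chain gene.

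Sequence relations within the family matter here because fragments of near-identical genes can be assigned to the wrong member. Coding sequences of the 8 genes were taken from the GENCODE M21 annotation (mm10). They ranged from 873 bases in Gimap9 to 984 bases in Gimap4, apart from Gimap8 with 2064 bases, which encodes a longer protein with several GTPase domains. Gimap3 and Gimap5, neighbours at one end of the cluster, were identical in 85.0% of 952 alignment columns, internal gaps included. The next closest of the 28 pairs, Gimap7 and Gimap9, reached 61.9%, and the lowest was Gimap7 with Gimap8 at 43.4%. The longest run that the coding sequences of Gimap3 and Gimap5 hold in common is 140 bases long. This run is shown in capitals, with 25 bases on either side, because a fragment lying wholly inside it fits both genes. It covers coding bases 187 to 326 of Gimap5 and 175 to 314 of Gimap3.
Gimap5: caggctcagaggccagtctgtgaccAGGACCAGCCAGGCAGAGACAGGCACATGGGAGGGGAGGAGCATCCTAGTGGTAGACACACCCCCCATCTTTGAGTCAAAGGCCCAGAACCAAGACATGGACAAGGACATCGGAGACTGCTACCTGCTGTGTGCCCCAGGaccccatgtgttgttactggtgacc
Gimap3: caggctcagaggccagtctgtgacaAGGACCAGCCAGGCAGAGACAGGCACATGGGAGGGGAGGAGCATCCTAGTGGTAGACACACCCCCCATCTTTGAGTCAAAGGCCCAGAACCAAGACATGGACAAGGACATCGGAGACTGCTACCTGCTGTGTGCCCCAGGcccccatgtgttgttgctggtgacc
In all other pairs the longest common run of the coding sequences was at most 17 bases. Of all stretches of 50 bases in the annotated transcripts, 9.98% of those of Gimap5 and 7.52% of those of Gimap3 occurred in the other gene of the pair, and 0% of those of the remaining 6 members occurred in another member. The read length is not given in the sources used here.

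**Figure D1:**
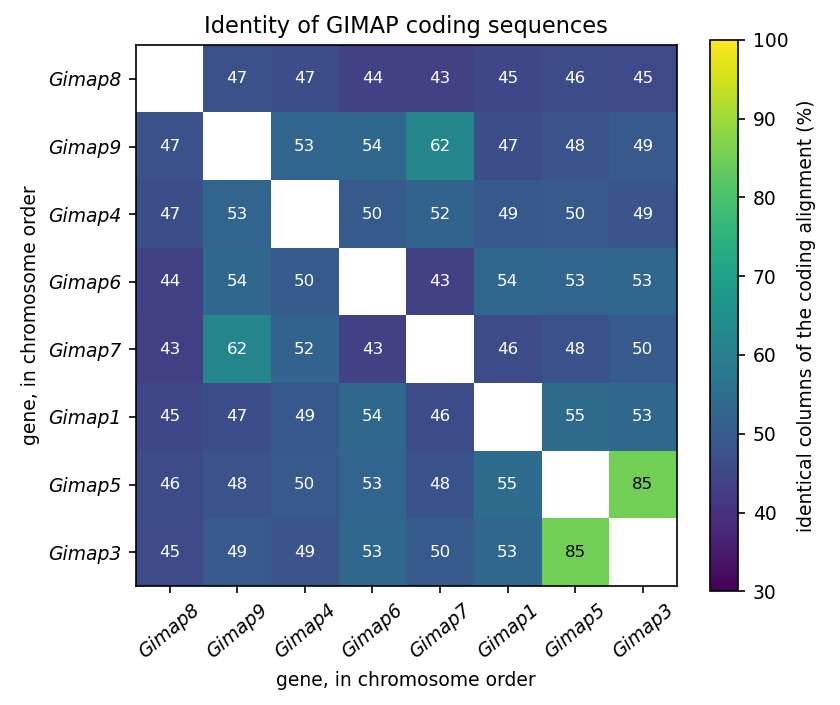
Identity of the coding sequences of the 8 GIMAP genes, in percent of identical alignment columns, with the genes in chromosome order on both axes. Gimap3 and Gimap5 stand apart from the other 27 pairs at 85.0%, and Gimap7 and Gimap9 follow at 61.9%.

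Spi1 checks the group labels. Its level was 36.0 FPKM before and 246 FPKM after induction per the authors' deposited table, a log2 change of 2.78. From the steps between the lowest FPKM values, about 117000000 fragments stood behind the non-induced and about 123000000 behind the induced group. Steps 5% smaller or larger still left 54.4% to 66.1% of the low values near whole numbers, beside 72.4% and 66.6% at the best steps, so the depths of the groups cannot be told apart. At that depth, with the longest annotated coding transcript of each gene as its length, the smallest estimate was about 192 fragments. It was that of Gimap4 in induced cells, and a shorter transcript would mean fewer fragments.

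All 8 GIMAP genes were lower in induced cells, by factors between 1.13 and 3.64 per the authors' deposited table. Gimap3 was lower by the largest factor, and Gimap4, Gimap7 and Gimap8 followed. The 3 members with the highest levels, Gimap1, Gimap9 and Gimap6, were lower by the smallest factors. The authors called 7 of the 8 genes lower and 0 higher, a call being a Cuffdiff q-value under 0.05 in a row they had tested. Over all 10657 tested rows 16.1% were called lower and 19% higher by that rule. These calls rest on the contrast that was known when the genes were chosen, so nothing is read from their number. With p-values from the test statistic read as a normal deviate, only Gimap3, Gimap4, Gimap7 and Gimap8 were called lower, 4 of 8, where 6.16% of all tested rows were lower and 8.97% higher. The same 4 genes were left when a 1.5-fold difference was required beside the authors' q-value, where 3.85% of all tested rows were lower and 6.34% higher.

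The line expressed the family at levels spread over a factor of 29.9 before induction. Gimap1, which is needed for mature lymphocytes, had the highest level with 54.1 FPKM before and 44.8 FPKM after induction per the authors' deposited table. Gimap9, a member known from rodents, stood at 44.5 and 39.5 FPKM per the authors' deposited table. Gimap6, a protein tied to autophagy, was listed at 38.8 FPKM before and 32.2 FPKM after induction per the authors' deposited table. Together these 3 genes made up 75.6% of the summed FPKM of the family in non-induced and 81.9% in induced cells.

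Gimap5, the survival factor of T cells described on lysosomes, followed at 16.0 FPKM before and 12.4 FPKM after induction per the authors' deposited table. Its near copy Gimap3 went from 11.3 to 3.11 FPKM per the authors' deposited table. Gimap3 thus stood at 0.71 times the level of Gimap5 before induction and at 0.25 times that level after it. Gimap8 had 9.54 and 5.91 FPKM, and Gimap7, whose product speeds the GTP hydrolysis of partner GIMAP proteins, had 5.68 and 3.46 FPKM per the authors' deposited table. Gimap4, described as speeding the death of T cells, was the lowest member at 1.81 FPKM before and 0.862 FPKM after induction per the authors' deposited table.

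From highest to lowest, the non-induced order was Gimap1, Gimap9, Gimap6, Gimap5, Gimap3, Gimap8, Gimap7 and Gimap4. After induction Gimap3 stood below Gimap8 and Gimap7, and the order of the other 7 was as before. With 1 value per group it cannot be said which neighbours in that order differ beyond the spread of the libraries. The summed FPKM of the family went from 181.7 to 142.2, so 78.3% was left, and the difference of 39.5 FPKM was spread over all 8 genes. Gimap3 held 6.23% of the sum before and 2.19% after induction, while the share of Gimap1 was 29.8% and 31.5%. In RNA from whole cultures, fewer cells that express a gene and less RNA per cell cannot be told apart.

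**Figure D2:**
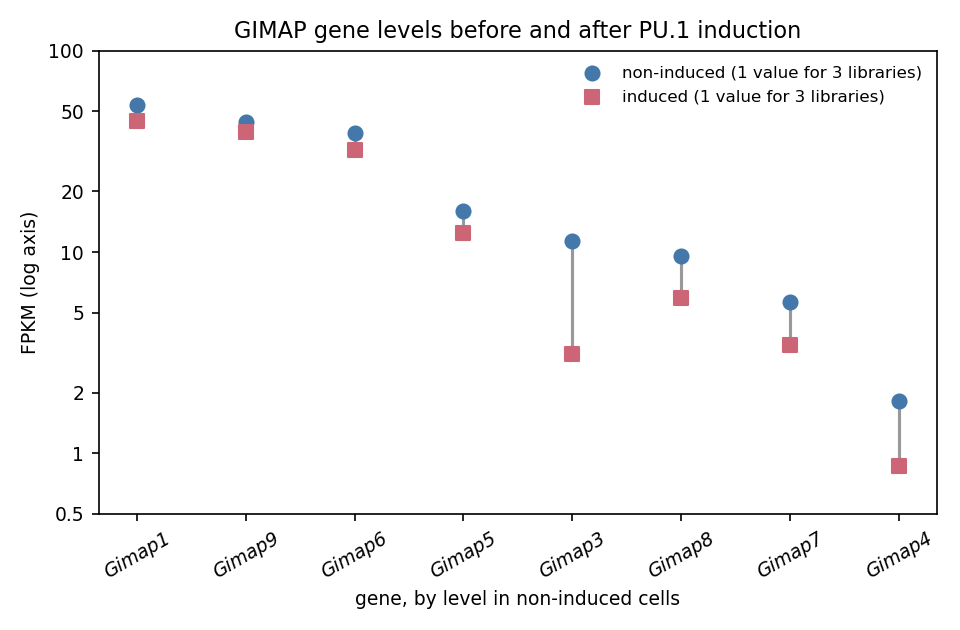
Level of each GIMAP gene in FPKM (log axis), as the authors' 1 value per group, in non-induced (circles) and induced cells (squares), with genes ordered by the non-induced level. Every square lies below its circle, and the widest gap is that of Gimap3, from 11.3 to 3.11 FPKM.

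The size of the difference was largest for Gimap3. Cuffdiff's statistic was read as the log2 change divided by its standard error, which the table does not state, so the errors and intervals computed from it are called implied. Gimap3 changed by -1.86 on the log2 scale (implied standard error 0.16, 95% interval -2.17 to -1.56) per the authors' deposited table. Of the 10628 tested rows with a finite log2 change 37 had a more negative one. Gimap4 followed with -1.07 and a wider interval of -1.62 to -0.52 per the authors' deposited table. The log2 changes of Gimap7 (-0.71) and Gimap8 (-0.69) per the authors' deposited table were 0.02 apart.

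The other 4 members had smaller differences. Gimap5 had a log2 change of -0.37 (implied standard error 0.15) per the authors' deposited table. Its implied interval ran from -0.67 to -0.08. Gimap6 and Gimap1 both stood at -0.27 per the authors' deposited table, with q-values of 0.00478 and 0.00660. The implied interval of Gimap6 nevertheless reached 0.01 and that of Gimap1 ended at -0.01, so these calls depend on how the p-value was made. Gimap9 was not called, with a log2 change of -0.17 (interval -0.45 to 0.10, q = 0.110) per the authors' deposited table. The other 5 members had the smallest q-value of the authors' deposited table, 0.000287, which 1855 rows have in all. That q-value does not rank them, since Cuffdiff's statistic was -11.9 for Gimap3 and -2.45 for Gimap5. With normal p-values Gimap5 was not called.

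In the order of their log2 changes, the widest step between neighbours was 0.79, from Gimap3 to Gimap4, and the next was 0.36, from Gimap4 to Gimap7. The 4 genes at 16.0 FPKM or more before induction had the 4 smallest differences, and the 4 genes under that level had the 4 largest. The median log2 change of the 8 genes was -0.53, beside -0.01 for all tested rows.

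By the rule for genes of like pattern, tested genes were ranked by their distance from a member in the log2 levels of the 2 groups, that is, over 2 values only. Nearest to Gimap3 were Sema7a (distance 0.16), which encodes a membrane-anchored semaphorin, Mgll (0.32), a lipase of monoacylglycerols, and Sh2d2a (0.32), an adaptor of T cell signalling. Sema7a stood at 12.0 and 3.43 FPKM per the authors' deposited table. Nearest to Gimap4 were Ell3 (0.06), an elongation factor gene, the unnamed transcript 5830428M24Rik (0.14) and Dock5 (0.15), a Rac exchange factor gene. Ell3 stood at 1.80 and 0.900 FPKM per the authors' deposited table.

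The 8 genes lie within 123.6 kb of chromosome 6, at chr6:48647234-48770851 (mm10, GENCODE M21). All are protein-coding, 6 on the plus strand and 2, Gimap6 and Gimap3, on the minus strand. The chromosome order is Gimap8, Gimap9, Gimap4, Gimap6, Gimap7, Gimap1, Gimap5 and Gimap3. Gimap3 spans chr6:48764464-48770851 and Gimap5 chr6:48746197-48754210. Along the chromosome, Gimap9 (-0.17) lies between Gimap8 (-0.69) and Gimap4 (-1.07) and Gimap5 (-0.37) lies beside Gimap3 (-1.86), all log2 values per the authors' deposited table. Gimap9 spans chr6:48676129-48679114 and Gimap4 chr6:48684549-48692060. The annotation also holds a readthrough gene, Gm28053, with stretches in common with Gimap7, Gimap1, Gimap5 and Gimap3, and an antisense gene, Gimap1os, over Gimap1. Gm28053 holds 8.48% of the 50-base stretches of Gimap1, 5.51% of those of Gimap5, 2.37% of those of Gimap7 and 0.316% of those of Gimap3, and Gimap1os holds 6.09% of those of Gimap1. No row of the table carried the name of either, so the part of their fragments in the values of Gimap7, Gimap1, Gimap5 and Gimap3 was not tested.

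Genes on either side of the cluster were also lower in some cases. Of 32 rows within 1 Mb of the outermost members the authors had tested 18, and 8 of these fell and 0 rose by their q-value (44.4% lower, beside 16.1% of all tested rows). At an unadjusted Cuffdiff p under 0.05 there were also 0 higher. With the statistic read as a normal deviate 5 were lower and 0 higher (6.16% and 8.97% of all tested rows). The median log2 change of the 18 was -0.19. On the side of Gimap3 the nearest tested genes, Tmem176b and Tmem176a, fell by more than 2-fold. These encode related membrane proteins found in dendritic cells and other leukocytes. Tmem176b, 63.0 kb from Gimap3, fell from 1.99 to 0.690 FPKM (log2 -1.53, implied standard error 0.36, q = 0.000287) per the authors' deposited table. Tmem176a, 70.1 kb away, had 1.69 FPKM before and 0.377 FPKM after induction (log2 -2.17, with 0.44 as its implied error) per the authors' deposited table. The annotation has both overlap on opposite strands, and the strand setting of the counting is not given in the sources used here, so their fragments may be mixed. The next 4 tested genes on that side, from 302.9 kb on, were not called.

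On the side of Gimap8, 6 of 12 tested genes fell. Repin1, a zinc finger gene 48.2 kb from Gimap8, fell from 12.0 to 8.58 FPKM per the authors' deposited table (log2 -0.49). The zinc finger genes Zfp786 (log2 -1.20), Zfp956 (-0.57), Zfp398 (-0.25) and Zfp777 (-0.22) and the pseudogene Zfp862-ps (-0.29) fell as well per the authors' deposited table. Of these, Zfp398, Zfp777 and Zfp862-ps were not called with normal p-values. The levels of Zfp786 were low, 0.391 and 0.170 FPKM (implied standard error 0.38), and Zfp862-ps had 1.02 and 0.833 FPKM per the authors' deposited table. Zfp775, 24.0 kb away and the tested gene nearest to Gimap8, was not called, at 2.85 and 2.61 FPKM per the authors' deposited table. Of the 14 untested rows 10 were listed at 0 in both groups, Krba1 and Aoc1 among them.

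**Figure D3:**
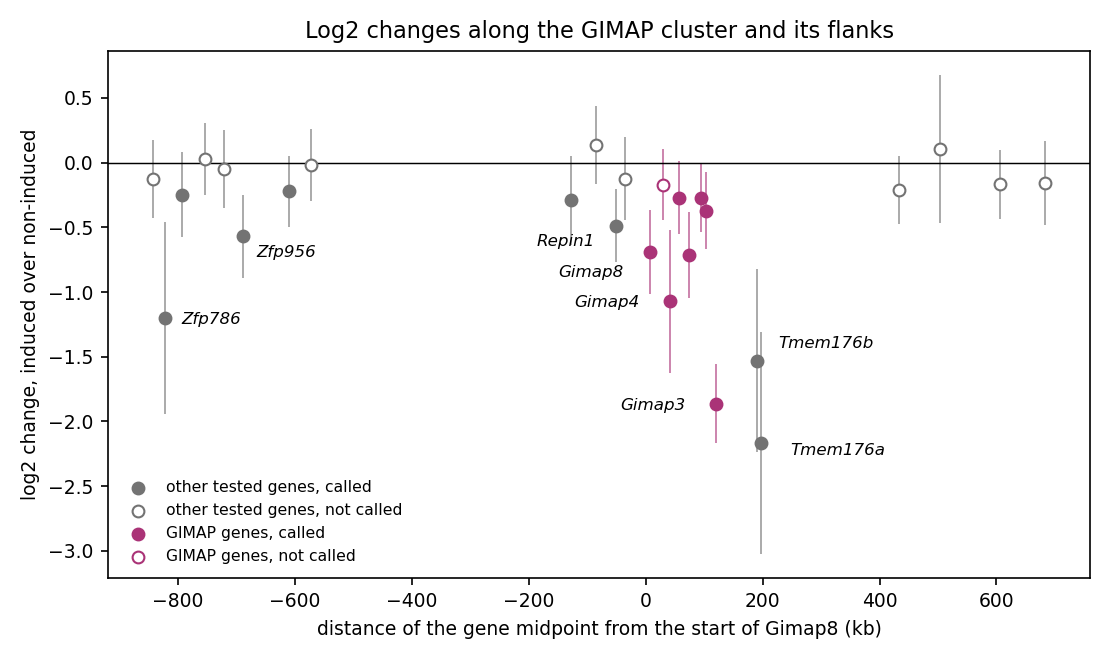
Log2 change of each GIMAP gene (purple) and of the 18 other tested genes within 1 Mb (grey) against the distance of its midpoint from the start of Gimap8 in kb. Filled points were called by the authors, and bars are 95% intervals from the implied standard error. The lowest points are Gimap3 (-1.86) and its neighbours Tmem176b (-1.53) and Tmem176a (-2.17).

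Promoter sequences were taken from RefSeq (GRCm38.p6, the assembly of mm10), and all 8 genes matched. Gimap8 had a pair of start sites, which gave 9 windows in all. The windows of Gimap8 overlap, so a match in the bases they share is counted in both. Each window holds 250 bases before and 50 bases from the start site on. PU.1 binds purine-rich sites around the ETS core GGAA, which was therefore searched on both strands, with GAGGAA as a narrower PU.1-like motif that includes it. GGAA occurred in all 9 windows, beside 96.0% of the 32851 windows in the table. GAGGAA occurred in 3 of 9 windows, beside 28.3% of all windows. These were the windows of Gimap4, with matches starting 46 and 32 bases before the start site, Gimap7, 61 bases before it, and Gimap1, 108 bases before and at base 4. TGTGGT, a RUNX-like motif, was also held by 3 windows (16.8% of all), again those of Gimap4, Gimap7 and Gimap1. The Ikaros-like motif TGGGAA, which includes GGAA, occurred once, in Gimap3 (25.6% of all windows). The E-box CANNTG occurred in 7 of 9 windows (72.3% of all). The window of Gimap3 held GGAA but no GAGGAA. A match is a run of letters and does not show binding, nor does its absence show a lack of binding. Binding at these genes was not tested.

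The 250 bases before the start site are shown for the 2 members with the largest and the 2 with the smallest differences, so that their cores can be compared. Capitals mark GGAA or its reverse complement TTCC. Gimap3 lies at chr6:48770852-48771101 on the minus strand, and the other 3 lie on the plus strand, Gimap4 at chr6:48684328-48684577, Gimap1 at chr6:48738797-48739046 and Gimap9 at chr6:48675885-48676134.
Gimap3: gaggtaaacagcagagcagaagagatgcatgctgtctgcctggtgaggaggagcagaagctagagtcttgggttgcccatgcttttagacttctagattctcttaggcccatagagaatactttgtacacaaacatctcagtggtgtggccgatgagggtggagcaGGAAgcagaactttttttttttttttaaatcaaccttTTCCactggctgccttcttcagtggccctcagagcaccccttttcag
Gimap4: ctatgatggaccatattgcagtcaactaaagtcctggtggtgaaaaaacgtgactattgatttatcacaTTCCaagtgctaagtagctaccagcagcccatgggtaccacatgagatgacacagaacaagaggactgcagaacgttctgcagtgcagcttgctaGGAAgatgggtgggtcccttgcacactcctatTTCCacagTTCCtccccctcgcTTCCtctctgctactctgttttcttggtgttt
Gimap1: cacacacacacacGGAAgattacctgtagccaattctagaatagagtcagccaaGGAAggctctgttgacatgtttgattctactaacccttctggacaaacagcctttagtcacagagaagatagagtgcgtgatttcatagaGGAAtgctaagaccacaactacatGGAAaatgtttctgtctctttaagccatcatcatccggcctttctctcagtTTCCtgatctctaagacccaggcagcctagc
Gimap9: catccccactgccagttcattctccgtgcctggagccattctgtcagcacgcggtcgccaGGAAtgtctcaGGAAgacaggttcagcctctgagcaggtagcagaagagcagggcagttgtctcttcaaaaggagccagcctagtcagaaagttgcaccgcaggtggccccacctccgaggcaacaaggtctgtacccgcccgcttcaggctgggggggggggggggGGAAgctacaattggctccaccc
Gimap3 holds 2 cores in this stretch, Gimap9 holds 3, and Gimap4 and Gimap1 hold 5 each. Gimap6, not shown though only 0.0005 from Gimap1 in log2 change, holds 6.

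GIMAP genes are known for their expression in T cells, so T lineage genes were examined next. Of 20 listed genes 7 were tested, of which 4 fell and 0 rose, beside 16.1% lower and 19% higher among all tested rows. With normal p-values 3 were lower, without Lat, and 0 higher, and at an unadjusted Cuffdiff p under 0.05 also 0 were higher. The median log2 change was -0.52, beside -0.01 for all tested rows. The summed level of the list was 532.2 FPKM before and 445.7 FPKM after induction. Most of it came from Lat (240 and 208 FPKM) and Lef1 (147 and 157 FPKM) per the authors' deposited table, and Lef1 was not called. Cd28, a costimulatory receptor, went from 34.6 to 14.2 FPKM per the authors' deposited table (log2 -1.28). The kinase genes Zap70 (log2 -1.16) and Lck (-0.52) and the adaptor gene Lat (-0.21) fell as well per the authors' deposited table. Defining T cell genes were not expressed at such levels, since Cd3e, Cd4, Bcl11b and Trat1 were listed at 0 in both groups and 12 of the 20 were under 0.1 FPKM in both. The B lineage markers summed to 4851 FPKM before and 7554 FPKM after induction, and all 10 were tested, with 8 higher and 0 lower (19% and 16.1% of all tested rows), Igll1 among them at 538 and 1083 FPKM per the authors' deposited table. Natural killer cell markers summed to 3.81 and 6.72 FPKM, almost all of it from Klrd1. Macrophage and granulocyte markers summed to 0.429 and 17.5 FPKM, mostly from Lyz2 with 15.2 FPKM in induced cells per the authors' deposited table. Erythroid and megakaryocyte markers summed to 0.359 and 0.371 FPKM. The part of these changes in the GIMAP differences was not tested.

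Notch signalling has been described to raise GIMAP5 in T cell leukaemia cells. Of 15 Notch receptors and targets 10 were tested, of which 3 rose and 1 fell (30% and 10%, beside 19% and 16.1% of all tested rows), with a median log2 change of 0.07. The target Hes1 fell from 5.67 to 1.44 FPKM (log2 -1.98) per the authors' deposited table. The receptor gene Notch1 rose from 5.24 to 6.07 FPKM per the authors' deposited table (log2 0.21, q = 0.0376), and so did Il2ra (log2 0.70) and the coactivator gene Maml1 (0.27). With normal p-values Notch1 and Maml1 were not called. No other target on the list was called.

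BCL2 family genes, whose products control cell death at mitochondria, included called genes in both directions. Of 18 listed genes 13 were tested, with 4 higher and 3 lower (30.8% and 23.1%, beside 19% and 16.1% of all tested rows) and a median log2 change of 0.09. With normal p-values 3 were higher and 2 lower, without Bbc3 and Bid. Bcl2, a survival factor, fell from 13.9 to 6.64 FPKM (log2 -1.07) per the authors' deposited table. Its relative Bcl2l1, which encodes BCL-XL, rose from 20.5 to 40.4 FPKM (log2 0.98) per the authors' deposited table. The other called rises were those of Bcl2l11 (log2 0.49), Pmaip1 (0.42) and Bbc3 (0.33) per the authors' deposited table. Bok (log2 -0.62) and Bid (-0.25) were the other 2 that fell per the authors' deposited table.

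**Figure D4:**
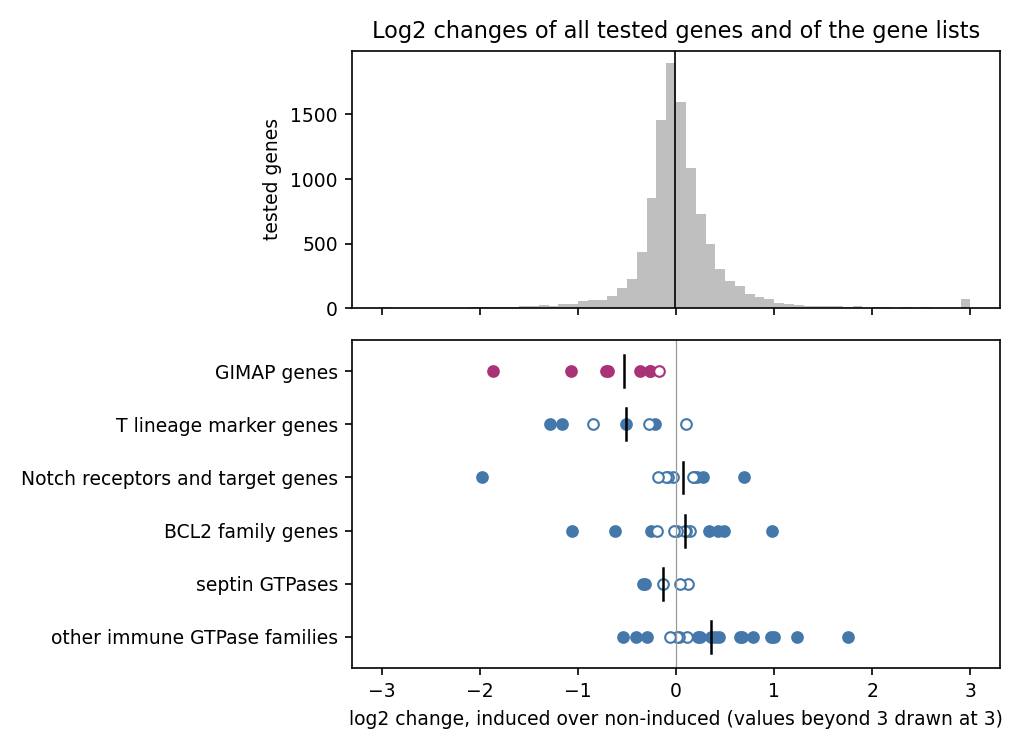
Histogram of the log2 change of all tested genes (top, line at the median of -0.01) and the tested members of each list (bottom, 1 point per gene, filled where the authors called it, bar at the list's median). The GIMAP genes, chosen with these values known, all lie below 0, as do the tested T lineage genes apart from Lef1 (0.10). The Notch, BCL2, septin and other immune GTPase lists lie on both sides of it.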

How the data were processed

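Stranded messenger RNA libraries were made from 6 samples, per the labels' protocols. The submitters' processing notes name Trim Galore 0.2.8.1, TopHat2 2.0.9, Cufflinks, Cuffdiff 2.1.1 and mm10. Their annotation is not given in the sources used here. As deposited, the authors' table holds 1 FPKM value per gene and group. The authors deposited log2 changes, p-values and q-values beside them, and a test statistic, which is a score. In 524 rows the fold change was a spreadsheet error mark, none of them a GIMAP gene. The planned test was the deposited q-value under 0.05. Recomputed by the Benjamini-Hochberg method over 10657 rows it differed by at most 5.15e-07.

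Coordinates, coding sequences and transcripts came from GENCODE M21, and promoters from RefSeq. Proteins were planned, but coding sequences were aligned instead (Biopython 1.88, match 5, mismatch -4, gap opening 10, extension 0.5). Depth came from FPKM times length of genes with 1 transcript of at least 1 kb. In non-induced cells 72.4% and in induced cells 66.6% of low values lay within 0.15 of a whole number of fragments, beside 30% for even spread at a single step (the step itself was chosen as the best fitting), so fragment numbers are approximate. Septin symbols stored as dates were matched by locus in 11 rows. Functions were tested on simulated data. Members and lists were chosen with earlier results of these data known. Named genes were all GIMAP rows, Spi1, called flanking rows, the largest called rise and fall of each list, a few fixed list members and the 3 nearest genes to the 2 members that changed most. Zap70, Lat, Lef1, Maml1, Bok, Bid, Bbc3, Bcl2l11, Pmaip1, Gvin1, Zfp775, Krba1, Aoc1, Sept1, and the markers listed at 0, were named after their values were seen.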

Additional observations from a re-analysis of the deposited data

How the results depend on the processing

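Group values only were at hand, so no library could be left out. No paired analysis was possible because the columns hold 1 value per group and no replicate numbers. With p-values from the test statistic read as a normal deviate, 4 of 8 GIMAP genes were called lower in place of 7, namely Gimap3, Gimap4, Gimap7 and Gimap8 (6.16% of all tested rows were lower by that rule). Then 5 of 18 flanking genes were lower in place of 8, and 0 septin genes were lower in place of 2. By the same rule 8.97% of all tested rows were higher, and 1 Notch gene was higher in place of 3. Of the other immune GTPase genes 7 were higher in place of 12 and 0 lower in place of 3. Where a 1.5-fold difference was required as well, 4 GIMAP genes, 3 flanking genes and 2 T lineage genes were lower (3.85% of all tested rows). Then 0 immune GTPase and 0 septin genes were lower. In the other direction, 1 Notch gene, 1 BCL2 family gene and 7 immune GTPase genes were higher (6.34% of all tested rows). Without rows that share a locus, 1 immune GTPase gene was lower in place of 3. The other 41 recomputed counts lay within 1.5 times the first. Some of these were 0 at first and had to stay 0 where a setting only removed rows or calls. Fewer rows were then tested in some lists, as for the T lineage genes with 5 in place of 7 at a mean FPKM of at least 1. With 1 added to each FPKM the log2 change was -0.59 for Gimap4 and -1.58 for Gimap3. The same amount added to both values cannot change the sign of a log2 change, so nothing is read from the signs at the pseudocounts. Centring on the median of all tested rows (-0.01) left Gimap9, the smallest change, at -0.16. Over the 250 bases before the start site, 0 promoter windows held TGGGAA in place of 1. The causes were not tested.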

Other observations

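Other GTPase families of immune cells were examined beside the GIMAP genes. The list held guanylate-binding proteins, immunity-related GTPases and Mx proteins, which are often induced by interferon, and a further GTPase gene, Gvin1. It had 19 tested rows, with Gvin1 in more than 1 of them. Of these 12 rose and 3 fell in induced cells, with a median log2 change of 0.35, beside 19% higher and 16.1% lower among all tested rows. Mx2, an antiviral GTPase, rose from 0.392 to 1.32 FPKM (log2 1.75) per the authors' deposited table. Gbp2, a guanylate-binding protein gene named after its values were seen, rose from 30.2 to 71.1 FPKM per the authors' deposited table. Gbp11 had the largest fall, from 0.642 to 0.440 FPKM (log2 -0.55) per the authors' deposited table. The other falls were those of separate rows of Gvin1 (log2 -0.41 and -0.29) per the authors' deposited table. By normal p-values 7 of the list were higher and 0 lower, so Gbp11 was not called by that rule. Near-identical copies within these families can share fragments.

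Septins are filament-forming GTPases of the cell cortex. Of 13 listed genes 5 were tested, of which 2 fell and 0 rose (16.1% and 19% of all tested rows), with 0 higher at an unadjusted Cuffdiff p under 0.05. With normal p-values from the statistic 0 were lower and 0 higher, so neither fall was called by that rule. Sept9 went from 70.8 to 56.0 FPKM (log2 -0.34) and Sept1 had a log2 change of -0.31 per the authors' deposited table. Sept6 and Sept7, at 58.0 and 122 FPKM in non-induced cells, were not called per the authors' deposited table.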
